A study of Mus musculus with 20 samples.

Results

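The genes described here are 10 feedback targets of fibroblast growth factor (FGF) signalling through the kinase ERK: the Sprouty genes Spry1, Spry2 and Spry4, the SPRED genes Spred1 and Spred2, the phosphatase genes Dusp4 and Dusp6, the ETS transcription factor genes Etv4 and Etv5, and Il17rd. They were taken by gene name, as a pathway list, from the 54446 gene IDs of the deposited tables. All 10 passed the filter of a mean of at least 1 TPM (transcript abundance scaled to the same total in each library) and are among the 14290 genes tested.

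Expression was measured by bulk RNA sequencing of polyadenylated RNA in 15 libraries. Each of the 5 groups has 3 libraries, made from structures that mouse embryonic stem cells form in culture. All groups came from the line F1G4 with the reporters T::H2B-mCherry and Sox2::H2B-Venus, which mark Brachyury (T) and Sox2 expression, so every value is from 1 genotype. Cells were grown on feeder cells, freed of them and aggregated, and every group received the same early pulse of 3 µM CHIR99021, a GSK3 inhibitor that activates WNT signalling. The 96h group held precursors collected at 96 h, 10 pooled per library, and the other groups were collected at 120 h, 6 pooled per library. At 120 h, Gastruloid structures had been grown without Matrigel, TLSMG structures (trunk-like structures) in Matrigel, a basement membrane gel, TLSMGC structures in Matrigel with CHIR added again, and TLSMGCL structures in Matrigel with CHIR and LDN, which blocks BMP receptors. The doses of the later CHIR and of LDN are not given in the sources used here. The structures had been picked for an asymmetric pole, and each library is the average of a pool. The labels call the 3 libraries of a group biological replicates. Single-cell libraries (5 samples) and NanoString data of the series were not analysed here.

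FGF ligands bind receptor tyrosine kinases that activate RAS, RAF, MEK and ERK, and ERK switches on genes whose products damp the same pathway. Sprouty and SPRED proteins act on the RAS to RAF step, the DUSP phosphatases remove phosphate from ERK, and Il17rd (also called Sef) acts near the receptor and on ERK itself. Etv4 and Etv5 encode transcription factors that carry part of the FGF response, and transcripts of these genes are widely used as a readout of FGF activity. In the embryo FGF signalling is high in the tailbud and presomitic mesoderm and falls off towards the somites.

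The ratio of coverage to FPKM, a measure of relative depth, ran from 3.12 to 6.84 over the 15 libraries, and 13688 to 14494 genes per library reached 1 TPM. The tailbud and presomitic marker list (11 genes, among them T, Tbx6 and Msgn1) summed to 1666 to 2142 TPM at 96h. At 120 h its sum was 174 to 274 TPM for Gastruloid, 234 to 295 TPM for TLSMG, 447 to 574 TPM for TLSMGC and 459 to 525 TPM for TLSMGCL. Neural tube markers summed to 76.6 to 93.9 TPM at 96h, and at 120 h to 400.2 to 549 TPM for Gastruloid, 214 to 323 TPM for TLSMG, 63.9 to 78.2 TPM for TLSMGC and 76.4 to 91.0 TPM for TLSMGCL, with 1 of 12 listed at 0 in every library of TLSMGC and 1 in every library of TLSMGCL. Somite markers summed to 1979 to 2560 TPM at 96h and to 798 to 1265 over the groups at 120 h, with 1 of 11 listed at 0 in every library of TLSMGC and 1 in every library of TLSMGCL. The sum did not speak for most genes of this list. Of the 10 tested, 6 were called higher and 3 lower in Gastruloid than at 96h, and likewise in TLSMG. In TLSMGC 4 were higher and 5 lower than at 96h. In these bulk libraries, fewer cells of a type and less RNA per cell cannot be told apart. The part of the changing cell types in the results below was not tested.

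By group mean of TPM, the feedback targets were highest at 96h or in TLSMG. Of the 10 genes, 7 had their highest group mean at 96h and 3 (Spry1, Dusp4 and Spred1) had it in TLSMG. These extremes were not counted over all genes, of which 33.5% were called higher and 12.5% lower in TLSMG than at 96h. Spry1 in TLSMG overlapped Gastruloid. The Dusp4 difference between TLSMG and 96h was 0.15 with median-of-ratios scaling (limma adjusted p = 0.272). For Spred1 the difference between TLSMG and 96h was 0.16 (limma adjusted p = 0.228), and it was -0.00872 with median-of-ratios scaling and -0.31 after correction for GC content and length (limma adjusted p = 0.00188). The lowest mean stood in TLSMGC for 4 genes, in TLSMGCL for 3, in Gastruloid for 2 and in TLSMG for 1. The F test of limma among the 5 groups called 9 of the 10 at an adjusted p under 0.05, beside 73.5% of all genes tested. The exception was Il17rd, with a limma adjusted p of 0.092. Without TLSMGCL replicate 2, which stood apart for this gene, its limma adjusted p was 0.00266 and 10 members were called, as they were without TLSMGCL replicate 3.

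**Figure D1:**
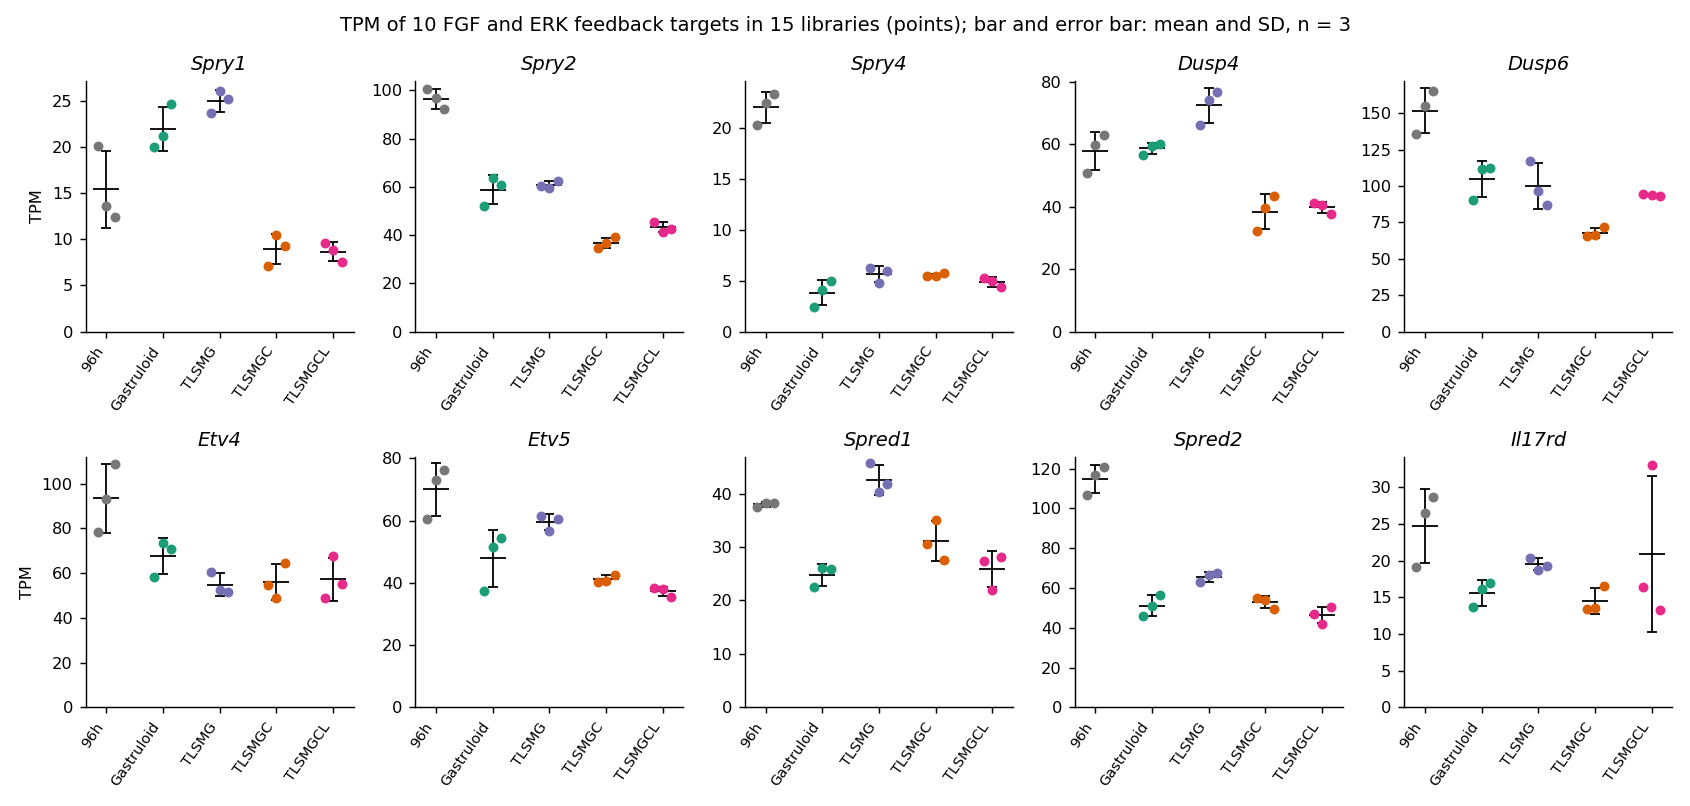
TPM of each of the 10 feedback targets in the 15 libraries. Points are libraries, horizontal bars are group means and error bars are the SD (n = 3). Spry4 fell from 20.3 to 23.3 TPM at 96h to at most 6.22 TPM in any library at 120 h. Spry1 had its highest mean in TLSMG, at 23.7 to 26.0 TPM, which overlapped Gastruloid at 20.0 to 24.6 TPM.

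The promoters of 4 members are shown because these genes span the patterns described below: Spry1 is the one member that rose in both Gastruloid and TLSMG, Spry2 and Dusp6 fell in all 3 comparisons with 96h, and Spred1 had its highest TPM in TLSMG, an order that turned under other scalings. The windows are the 250 bases before the start site in RefSeq on GRCm38.p6: chr3:37639697-37639946 on the plus strand for Spry1, chr14:105896820-105897069 on the minus strand for Spry2, chr10:99262981-99263230 on the plus strand for Dusp6 and chr2:117120821-117121070 on the plus strand for Spred1. Capitals mark GGAA, the core of the sites that ETS factors such as Etv4 and Etv5 bind, or its reverse complement TTCC.
Spry1: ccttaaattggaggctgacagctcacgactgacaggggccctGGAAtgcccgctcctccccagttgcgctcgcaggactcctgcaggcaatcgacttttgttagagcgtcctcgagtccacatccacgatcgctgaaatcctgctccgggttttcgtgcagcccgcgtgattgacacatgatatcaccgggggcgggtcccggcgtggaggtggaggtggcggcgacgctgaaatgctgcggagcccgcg
Spry2: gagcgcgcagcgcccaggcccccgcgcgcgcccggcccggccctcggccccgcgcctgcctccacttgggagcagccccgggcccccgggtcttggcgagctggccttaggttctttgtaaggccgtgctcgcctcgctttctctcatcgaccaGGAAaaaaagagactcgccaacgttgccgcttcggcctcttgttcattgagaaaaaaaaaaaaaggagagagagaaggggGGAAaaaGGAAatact
Dusp6: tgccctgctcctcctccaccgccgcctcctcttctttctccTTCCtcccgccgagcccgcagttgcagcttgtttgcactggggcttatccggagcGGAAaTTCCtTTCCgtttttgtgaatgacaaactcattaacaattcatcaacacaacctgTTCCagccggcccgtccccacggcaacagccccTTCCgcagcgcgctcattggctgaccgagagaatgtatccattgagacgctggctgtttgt
Spred1: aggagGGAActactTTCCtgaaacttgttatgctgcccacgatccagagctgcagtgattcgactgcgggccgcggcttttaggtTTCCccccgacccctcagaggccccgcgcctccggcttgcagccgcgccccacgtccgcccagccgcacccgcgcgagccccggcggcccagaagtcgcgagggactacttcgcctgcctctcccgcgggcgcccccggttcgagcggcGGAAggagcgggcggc
The GGAA core was found 1 time in the Spry1 window, 3 times in Spry2, 4 times in Spred1 and 6 times in Dusp6. Over all 32851 promoter windows of this length the median was 3 matches and the middle of the distribution ran from 2 to 4, with 93.4% holding at least 1. Of the 10 members, 7 matched the promoter table, with 8 windows because Etv5 has 2. Spred2 had 7 matches, Il17rd 4, and the Etv5 windows 0 and 4. The longer ETS motif CCGGAAG, searched on both strands, was found in 0 of the 8 windows and in 6.91% of all windows. The TCF/LEF motif CTTTGAT, to which the mediators of WNT signalling bind, was found in 0 of the 8 and in 3.21% of all. The core was searched after the longer motif gave no match, and a match is a run of letters, not a bound site.

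Spry2 and Spry4, the Sprouty genes for which 1 transcript is annotated each, both fell from 96h to Gastruloid, TLSMG and TLSMGC. Spry2 (chr14:105891947-105896819, minus strand) was at 100.3, 96.8 and 92.2 TPM in replicates 1, 2 and 3 at 96h. It was at 52.1, 63.8 and 60.7 TPM in Gastruloid and at 60.1, 59.7 and 62.4 TPM in TLSMG. With CHIR it was lower again, at 34.7, 36.5 and 39.1 TPM in TLSMGC and 45.6, 41.5 and 42.6 TPM in TLSMGCL. The 96h libraries lay above all others, the Gastruloid and TLSMG libraries overlapped, and the TLSMGCL libraries lay between those and TLSMGC with no overlap on either side. Spry2 fell by 0.71 on the log2(TPM + 1) scale in Gastruloid (SE 0.08, limma adjusted p = 6.37e-06), by 0.66 in TLSMG and by 1.37 in TLSMGC (SE 0.08, limma adjusted p = 1.47e-08), each against 96h. Against TLSMG it fell by 0.71 in TLSMGC (limma adjusted p = 8.26e-06) and by 0.48 in TLSMGCL (limma adjusted p = 0.000204). TLSMGCL differed from TLSMGC by 0.23 (SE 0.08), with an unadjusted p of 0.00943 and a limma adjusted p of 0.192.

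Spry4 (chr18:38586268-38601268, minus strand) showed the largest change of the 10 genes. Its 96h libraries stood at 20.3, 22.4 and 23.3 TPM. The Gastruloid libraries stood at 2.47, 4.13 and 4.94 TPM and the TLSMG libraries at 6.22, 4.77 and 5.98 TPM. TLSMGC held 5.50, 5.44 and 5.72 TPM, and TLSMGCL held 5.29, 4.96 and 4.34 TPM. All 12 libraries at 120 h therefore lay under all 3 at 96h, and the group means at 120 h ran from 3.84 to 5.66 TPM. Spry4 fell against 96h on the log2 scale, with differences of -2.28 in Gastruloid (SE 0.16, limma adjusted p = 1.13e-07), -1.79 in TLSMG (limma adjusted p = 1.05e-06) and -1.81 in TLSMGC (limma adjusted p = 1.26e-06). The share of Spry4 in the summed TPM of the 3 Sprouty genes fell with it, from a mean of 16.5% at 96h to 4.47% in Gastruloid and 6.19% in TLSMG, and stood at 10.9% in TLSMGC and 8.56% in TLSMGCL. It was 0.49 higher in TLSMG than in Gastruloid (SE 0.16, limma adjusted p = 0.0285). This call held under 8 of 16 alternatives. It was lost with median-of-ratios scaling (0.35, limma adjusted p = 0.104), on FPKM (0.29, 0.105) and after correction for GC content and length (0.29, 0.217). With no filter on low values and with only the 2 groups the limma adjusted p was 0.0634 and 0.101. The call was also lost without Gastruloid replicate 1, the lowest library (0.26, limma adjusted p = 0.12), TLSMG replicate 1 (0.43, 0.0888) or TLSMG replicate 3 (0.45, 0.0847). Gm27369 and Gm27804, which overlap Spry4 on the other strand, were listed at 0 in every library.

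Spry1 (chr3:37639947-37644598, plus strand) went the other way in Gastruloid and TLSMG and then fell with CHIR. At 96h it was at 20.1, 13.6 and 12.4 TPM in replicates 1, 2 and 3. It was at 20.0, 21.2 and 24.6 TPM in Gastruloid and at 23.7, 26.0 and 25.2 TPM in TLSMG. With CHIR it was at 7.14, 10.4 and 9.24 TPM in TLSMGC and 9.62, 8.82 and 7.56 TPM in TLSMGCL. The groups with CHIR lay under every other library, and 96h replicate 1 reached into the Gastruloid range. TLSMG and Gastruloid overlapped too, with a difference of 0.18 (SE 0.16, limma adjusted p = 0.394). With median-of-ratios scaling that difference was 0.02 (limma adjusted p = 0.93). Spry1 rose by 0.69 in TLSMG against 96h (SE 0.16, limma adjusted p = 0.00337) and fell by 0.71 in TLSMGC against 96h (limma adjusted p = 0.00338). Its fall of 1.40 from TLSMG to TLSMGC (SE 0.16, limma adjusted p = 1.77e-05) was the largest of the 10 genes in that comparison, and TLSMGCL lay 1.43 below TLSMG (limma adjusted p = 1.23e-05). The rise of 0.51 in Gastruloid (limma adjusted p = 0.023) held under 12 of 16 alternatives. It was not called in the fit of only the 2 groups (limma adjusted p = 0.0562). Nor was it called without 96h replicate 2 (limma adjusted p = 0.0827), 96h replicate 3 (0.104) or Gastruloid replicate 3 (0.0854). Spry1 made up a mean of 11.4% of summed Sprouty TPM at 96h, 26.0% in Gastruloid, 27.3% in TLSMG, 17.4% in TLSMGC and 15.2% in TLSMGCL. Spry2 kept the largest share of the 3 throughout, with group means of 66.5% to 76.2%. Gm42922 overlaps Spry1 on the other strand and was at 0.379 to 1.26 TPM over the 15 libraries.

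Spred1 and Spred2, the SPRED genes, both fell from 96h to Gastruloid and were both higher in TLSMG than in Gastruloid with TPM. Spred1 (chr2:117121374-117182279, plus strand) was at 37.4, 38.2 and 38.3 TPM at 96h and at 22.5, 26.0 and 25.8 TPM in Gastruloid. In TLSMG it was at 45.7, 40.2 and 41.8 TPM, above every other library. TLSMGC held 30.5, 35.0 and 27.6 TPM and TLSMGCL held 27.3, 22.0 and 28.2 TPM. The Gastruloid and TLSMGCL libraries overlapped at the bottom of the order, and TLSMG and 96h did not overlap at the top. Spred1 fell by 0.60 in Gastruloid against 96h (SE 0.10, limma adjusted p = 0.000438), while the TLSMG value was 0.16 above 96h (limma adjusted p = 0.228). The direct test put TLSMG 0.76 above Gastruloid (SE 0.10, limma adjusted p = 0.000224), the largest rise of the 10 genes in that comparison, and TLSMGC 0.45 below TLSMG (limma adjusted p = 0.00377). Both calls were lost after correction for GC content and length (0.19, limma adjusted p = 0.0626, and -0.13, limma adjusted p = 0.153), under which TLSMG lay below 96h by -0.31 (limma adjusted p = 0.00188). The fall of 0.29 in TLSMGC against 96h (limma adjusted p = 0.0397) was lost under 7 of 16 alternatives, with limma adjusted p up to 0.152, each of the libraries 96h replicates 1, 2 and 3 and TLSMGC replicates 1 and 3 ending the call when left out.

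Spred2 (chr11:19924375-20024026, plus strand) was at 107, 117 and 121 TPM at 96h and lower in every library at 120 h. It was at 45.8, 50.8 and 56.6 TPM in Gastruloid and at 62.9, 66.5 and 67.3 TPM in TLSMG. TLSMGC held 55.2, 53.8 and 49.4 TPM and TLSMGCL held 47.1, 42.1 and 50.3 TPM. The TLSMG libraries were the highest at 120 h and overlapped no other group, whereas the other 3 groups overlapped their neighbours. Spred2 fell against 96h, with differences of -1.16 in Gastruloid (SE 0.09, limma adjusted p = 1.82e-07), -0.80 in TLSMG (limma adjusted p = 6.05e-06) and -1.11 in TLSMGC (limma adjusted p = 3.26e-07). TLSMG was 0.36 above Gastruloid (SE 0.09, limma adjusted p = 0.00537), and TLSMGC was 0.31 below TLSMG (limma adjusted p = 0.011). Neither call held after correction for GC content and length (0.18, limma adjusted p = 0.0578, and -0.05, limma adjusted p = 0.57). The first was also lost on FPKM (0.18, limma adjusted p = 0.0523) and the second with median-of-ratios scaling (-0.15, limma adjusted p = 0.101). The level of Spred2 in TPM was 14.8 times its level from read coverage, so its TPM is not set against those of other genes. On coverage Spred2 fell by 0.98 in Gastruloid, 0.67 in TLSMG and 0.92 in TLSMGC against 96h, each with a limma adjusted p under 0.05.

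**Figure D2:**
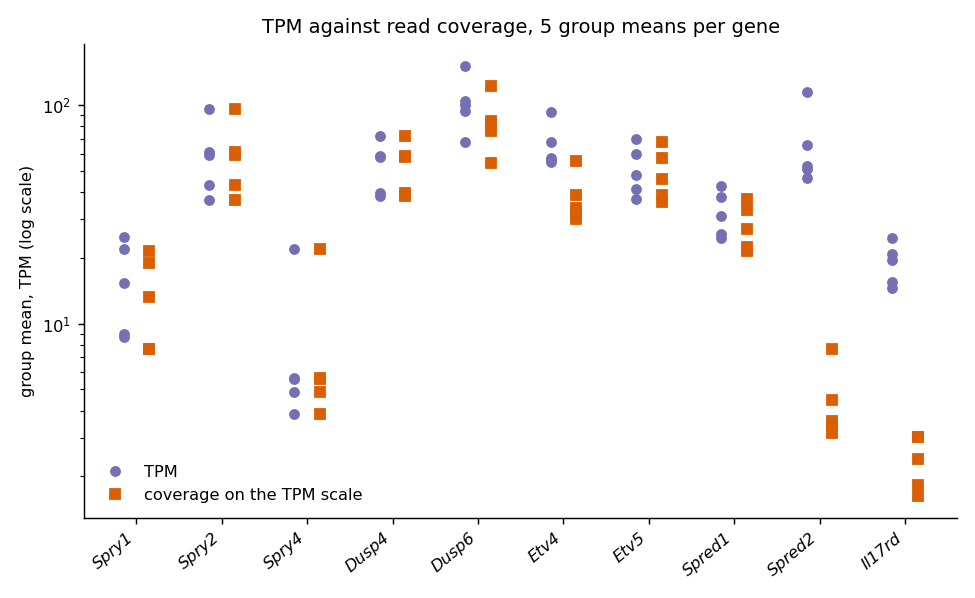
Group means of each feedback target as TPM (circles) and as read coverage on the TPM scale (squares), on a log axis, with 5 group means per gene. The pairs coincide for Spry2, Spry4 and Dusp4, for which 1 transcript is annotated, and lie furthest apart for Spred2 (14.8 times) and Il17rd (8.00 times).

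The phosphatase genes Dusp4 and Dusp6 both fell from TLSMG to TLSMGC and from 96h to TLSMGC. Dusp6 (chr10:99263231-99267489, plus strand), the cytoplasmic ERK phosphatase, was at 135, 155 and 165 TPM at 96h. It was at 90.2, 112 and 112 TPM in Gastruloid and at 117, 96.3 and 86.8 TPM in TLSMG. TLSMGC held 65.7, 66.3 and 71.7 TPM and TLSMGCL held 94.7, 94.2 and 93.4 TPM. The 96h libraries were the highest and the TLSMGC libraries the lowest, with no overlap to the other groups, and the TLSMGCL libraries lay inside the TLSMG range. Dusp6 fell against 96h by 0.53 in Gastruloid (SE 0.11, limma adjusted p = 0.00159), 0.60 in TLSMG (limma adjusted p = 0.000549) and 1.15 in TLSMGC (limma adjusted p = 2.52e-06). It fell by 0.54 from TLSMG to TLSMGC (SE 0.11, limma adjusted p = 0.00149). With LDN added, Dusp6 was 0.47 above TLSMGC (SE 0.11, unadjusted p = 0.000879, limma adjusted p = 0.0624), in 3 of 3 libraries, and after correction for GC content and length the value was 0.49 with a limma adjusted p of 0.0496. Against TLSMG, the Dusp6 difference in TLSMGCL was -0.08 (SE 0.11, limma adjusted p = 0.589).

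Dusp4 (chr8:34807297-34819894, plus strand), a nuclear ERK phosphatase, was at 50.9, 59.6 and 62.9 TPM at 96h and at 56.7, 59.5 and 59.9 TPM in Gastruloid. It was at 66.2, 74.1 and 76.8 TPM in TLSMG. With CHIR it was at 32.4, 39.5 and 43.3 TPM in TLSMGC and 41.2, 40.4 and 37.7 TPM in TLSMGCL. The TLSMG libraries lay above all others, 96h and Gastruloid overlapped, and the groups with CHIR lay below all others and overlapped each other. Dusp4 fell by 0.91 from TLSMG to TLSMGC (SE 0.10, limma adjusted p = 1.4e-05), by 0.84 from TLSMG to TLSMGCL (limma adjusted p = 2.15e-05) and by 0.58 from 96h to TLSMGC (limma adjusted p = 0.000486). Gastruloid and 96h differed by 0.03 (SE 0.10, limma adjusted p = 0.858). Dusp4 was 0.32 higher in TLSMG than at 96h (limma adjusted p = 0.0196) and 0.30 higher than in Gastruloid (limma adjusted p = 0.0347). Neither of these rises was called with median-of-ratios scaling (0.15, limma adjusted p = 0.272, and 0.13, limma adjusted p = 0.376), nor without TLSMG replicate 2 or TLSMG replicate 3. Both were lost on FPKM too (0.23, limma adjusted p = 0.0943, and 0.12, limma adjusted p = 0.387). The first was also lost without 96h replicate 1 (0.23, limma adjusted p = 0.0939). The second was also lost with no filter on low values (limma adjusted p = 0.0679) and without any 1 of the Gastruloid libraries (0.0574 to 0.101). Dusp4 made up a mean of 27.6% of the summed TPM of this pair at 96h, 36.0% in Gastruloid, 42.2% in TLSMG, 36.0% in TLSMGC and 29.7% in TLSMGCL.

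The transcription factor genes Etv4 and Etv5 both fell from 96h to Gastruloid and to TLSMGC. Etv4 (chr11:101769742-101785371, minus strand) was at 78.2, 92.9 and 109 TPM at 96h and at 58.4, 73.3 and 70.8 TPM in Gastruloid. It was at 60.7, 52.3 and 51.4 TPM in TLSMG, 54.5, 48.9 and 64.5 TPM in TLSMGC and 48.8, 67.8 and 55.1 TPM in TLSMGCL. The 96h libraries lay above all others, and the 4 groups at 120 h each overlapped the next in order. Etv4 fell by 0.75 in TLSMG (SE 0.15, limma adjusted p = 0.000941) and by 0.72 in TLSMGC (limma adjusted p = 0.0014) against 96h. Its fall of 0.46 in Gastruloid (limma adjusted p = 0.0234) was lost on FPKM (-0.37, limma adjusted p = 0.0801), with no filter on low values (limma adjusted p = 0.0517), and without 96h replicate 2 (0.0568), 96h replicate 3 (0.105) or Gastruloid replicate 1 (0.101). Etv4 and Il17rd were the members for which none of the comparisons among groups at 120 h passed the threshold with TPM. With median-of-ratios scaling it was lower in TLSMG than in Gastruloid (-0.46, limma adjusted p = 0.0414), as on FPKM (-0.46, limma adjusted p = 0.0365), where the TPM difference was -0.29 (limma adjusted p = 0.128).

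Etv5 (chr16:22381309-22439719, minus strand) was at 60.5, 73.2 and 76.3 TPM at 96h and at 37.5, 51.5 and 54.6 TPM in Gastruloid. In TLSMG it was at 61.6, 56.6 and 60.5 TPM. With CHIR it was at 40.3, 40.4 and 42.6 TPM in TLSMGC and 38.3, 38.0 and 35.6 TPM in TLSMGCL. The TLSMG libraries overlapped those at 96h and lay above all those of Gastruloid, and the TLSMGCL libraries lay below all those of TLSMGC. Etv5 fell by 0.55 in Gastruloid (SE 0.12, limma adjusted p = 0.00212) and by 0.75 in TLSMGC (limma adjusted p = 0.00021) against 96h. It differed by -0.22 in TLSMG (limma adjusted p = 0.138), which passed the threshold on FPKM (-0.31, limma adjusted p = 0.0468), with median-of-ratios scaling (-0.39, 0.0159), after correction for GC content and length (-0.34, 0.0364) and without 96h replicate 1 (-0.32, 0.0496). From TLSMG it fell by 0.52 in TLSMGC (limma adjusted p = 0.00314) and by 0.66 in TLSMGCL (limma adjusted p = 0.000564), the first of these being lost after correction for GC content and length (-0.29, limma adjusted p = 0.0745). Its TLSMG value was 0.33 above Gastruloid (limma adjusted p = 0.0415), a call that held under 6 of 16 alternatives. It was lost with median-of-ratios scaling (0.16, limma adjusted p = 0.315), on FPKM (0.15, 0.321) and after correction for GC content and length (0.19, 0.28). With no filter on low values, no mean trend and only the 2 groups the limma adjusted p was 0.0849, 0.0506 and 0.0933. The call was also lost without Gastruloid replicate 1 (0.16, limma adjusted p = 0.187) or any 1 of the TLSMG libraries (limma adjusted p of 0.0584 to 0.102). Etv5 made up a mean of 43.0% of the summed TPM of the pair at 96h, 41.3% in Gastruloid, 52.1% in TLSMG, 42.5% in TLSMGC and 39.7% in TLSMGCL. These shares depend on the measure, as TPM was 1.73 times the level from read coverage for Etv4 and 1.04 times for Etv5. On coverage the mean of Etv5 lay above that of Etv4 in every group, with 67.7 against 55.3 at 96h and 36.1 against 33.8 in TLSMGCL.

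Il17rd (chr14:27038941-27107286, plus strand) had the largest standard error of the 10 genes. It was at 19.1, 26.5 and 28.6 TPM at 96h, 13.6, 16.1 and 17.0 TPM in Gastruloid and 20.4, 18.8 and 19.3 TPM in TLSMG. TLSMGC held 13.4, 13.6 and 16.5 TPM. TLSMGCL held 16.4, 33.0 and 13.3 TPM, so that its replicate 2 was the highest and its replicate 3 the lowest of all 15 libraries. Il17rd fell by 0.72 in TLSMGC against 96h (SE 0.24, limma adjusted p = 0.0305), and no other comparison passed the threshold in the fit of all 5 groups. Fitted with only the 2 groups compared, it passed in Gastruloid against 96h (-0.62, limma adjusted p = 0.0195), TLSMG against Gastruloid (0.31, 0.0395) and TLSMGC against TLSMG (-0.41, 0.0186), and the first of these also passed without 96h replicate 1 (-0.79, 0.0334). The call in TLSMGC against 96h was lost under 7 of 16 alternatives, among them coverage in place of TPM (-0.60, limma adjusted p = 0.0693), correction for GC content and length (-0.57, limma adjusted p = 0.138) and leaving out 96h replicate 2, 96h replicate 3, TLSMGC replicate 1 or TLSMGC replicate 2 (limma adjusted p of 0.0806 to 0.106). The TPM of Il17rd was 8.00 times its level from coverage, where 5 transcripts are annotated.

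Within some groups, 1 replicate held the lowest value for most members. These ranks were not counted over all genes, so they are not read as particular to the members. Gastruloid replicate 1 held the lowest of the 3 values for 10 of 10 members, and 96h replicate 1 held the lowest for 8 of 10, the exceptions being Spry1 and Spry2. In TLSMG no replicate was lowest for more than 5 members. Gastruloid replicate 1 therefore sets the lower edge of that group in every gene described here, and the values without it are given where they end a call.

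Set against 96h, 7 members fell in Gastruloid, 5 in TLSMG and 10 in TLSMGC, while TLSMGCL was not tested against 96h. In Gastruloid 8 of 10 members were called, beside 41.2% of all genes tested. There 7 of 10 members fell, beside 20.5% of all genes tested, and 1 rose, beside 20.8%. The median log2 difference of the 10 was -0.57, against 0.00 over all genes tested. The libraries did not overlap for 8 members that were lower (28.6% of all genes) and for 0 that were higher (28.2%). In TLSMG 7 of 10 were called, beside 46.0% of all genes. There 5 fell (Spry2, Spry4, Dusp6, Etv4 and Spred2), beside 12.5% of all genes, and 2 rose (Spry1 and Dusp4), beside 33.5%. The libraries did not overlap for 5 that were lower (17.0% of all genes) and 3 that were higher (41.4%). In TLSMGC 10 of 10 were called, beside 40.7% of all genes, and all 10 were lower, beside 20.1% lower and 20.6% higher. The libraries did not overlap for any of the 10, beside 25.5% of all genes lower and 26.9% higher without overlap. The median over the members was -0.46 in TLSMG (all genes 0.14) and -0.74 in TLSMGC (all genes 0.02). These 3 comparisons share the 96h libraries and are given side by side only.

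The choice of scaling moved all genes in comparisons with TLSMG and must be read with the members' values. With TPM the median over all genes was 0.14 in TLSMG against 96h, 0.13 against Gastruloid, and -0.16 and -0.18 for TLSMGC and TLSMGCL against TLSMG, whereas with median-of-ratios scaling it was -0.01, -0.02, -0.01 and 0.00. The share of genes called higher in TLSMG than in Gastruloid went from 31.5% to 19.3% and the share called lower from 7.87% to 18.2%. From TLSMG to TLSMGC the share called lower went from 30.5% to 18.8% and the share called higher from 10.4% to 18.3%. For TLSMG against 96h the share called higher went from 33.5% to 22.4% and the share called lower from 12.5% to 23.1%, and for TLSMGCL against TLSMG the share called lower went from 35.6% to 20.0% and the share called higher from 9.31% to 19.1%.

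Matrigel alone, as TLSMG against Gastruloid, called 5 of 10 members, beside 39.3% of all genes. All 5 were higher (Spry4, Dusp4, Etv5, Spred1 and Spred2), beside 31.5% of all genes higher and 7.87% lower, with a median of 0.30 against 0.13 over all genes. With median-of-ratios scaling 2 members were higher (Spred1 by 0.59 and Spred2 by 0.19) and 1 lower (Etv4), and none of the 5 calls held under all alternatives. Relative to the median of all genes, the TPM difference was 0.62 for Spred1, 0.35 for Spry4, 0.22 for Spred2, 0.19 for Etv5 and 0.16 for Dusp4. The libraries did not overlap for 5 members that were higher (39.4% of all genes) and 0 that were lower (12.8%). Endothelial markers, 8 of 9 of which were higher in this comparison, summed to 34.6 to 45.8 TPM for Gastruloid and 267 to 324 TPM for TLSMG, and none was listed at 0 throughout a group. Pluripotency markers fell in 5 of 10, from a sum of 260 to 423 TPM to 127 to 166 TPM. Neural tube markers fell in 4 of 9 tested and gut endoderm markers in 1 of 8. Somite markers rose in 1 and fell in 3 of 10 tested, and tailbud and presomitic markers rose in 4 of 11. Their part in the result was not tested.

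Added CHIR, as TLSMGC against TLSMG, called 7 of 10 members, beside 40.9% of all genes. All 7 were lower (Spry1, Spry2, Dusp4, Dusp6, Etv5, Spred1 and Spred2), beside 30.5% of all genes lower and 10.4% higher. The libraries did not overlap for 8 members that were lower (38.8% of all genes) and 0 that were higher (13.6%). The median was -0.49 against -0.16 over all genes. Relative to that all-gene median, Spry1 differed by -1.24, Dusp4 by -0.75, Spry2 by -0.55, Dusp6 by -0.39, Etv5 by -0.37, Spred1 by -0.29 and Spred2 by -0.15. The calls of Spry1, Spry2, Dusp4 and Dusp6 held under every alternative run, and 6 of the 7 held with median-of-ratios scaling, Spred2 being the exception (-0.15, limma adjusted p = 0.101). Spry4 and Etv4 differed by -0.02 and 0.02, and Il17rd by -0.41 (SE 0.24, limma adjusted p = 0.197). Endothelial markers fell here in 9 of 9 genes, to a sum of 25.1 to 84.5 TPM in TLSMGC, and neural tube markers in 7 of 9 tested. Pluripotency markers fell in 8 of 10, from a sum of 127 to 166 TPM in TLSMG to 42.2 to 79.2 TPM in TLSMGC. Gut endoderm markers fell in 5 of 8, from 89.1 to 134 TPM to 42.1 to 80.6 TPM, and somite markers fell in 7 and rose in 2 of 10 tested. Their part in the result was not tested.

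Added LDN, as TLSMGCL against TLSMGC, gave 0 members past the limma adjusted threshold, beside 1.18% of all genes (0.406% higher and 0.777% lower). At an unadjusted p under 0.05 there were 3 members, Spry2 and Dusp6 higher and Spred1 lower, beside 12.9% of all genes, and the fit corrected for GC content and length called 1, Dusp6. The groups did not overlap for 2 members that were higher (Spry2 and Dusp6; 5.48% of all genes) and 2 that were lower (Spry4 and Etv5; 10.3%). Set against TLSMG, TLSMGCL had 6 of 10 members called, beside 44.9% of all genes. All 6 were lower (Spry1, Spry2, Dusp4, Etv5, Spred1 and Spred2), beside 35.6% of all genes lower and 9.31% higher, and did not overlap for 6 lower (42.3% of all genes) and 0 higher (12.4%). All 6 calls held under each alternative run. Dusp6 was the one member called between TLSMGC and TLSMG and not between TLSMGCL and TLSMG, and the difference between TLSMGCL and TLSMGC is the test given above.

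**Figure D3:**
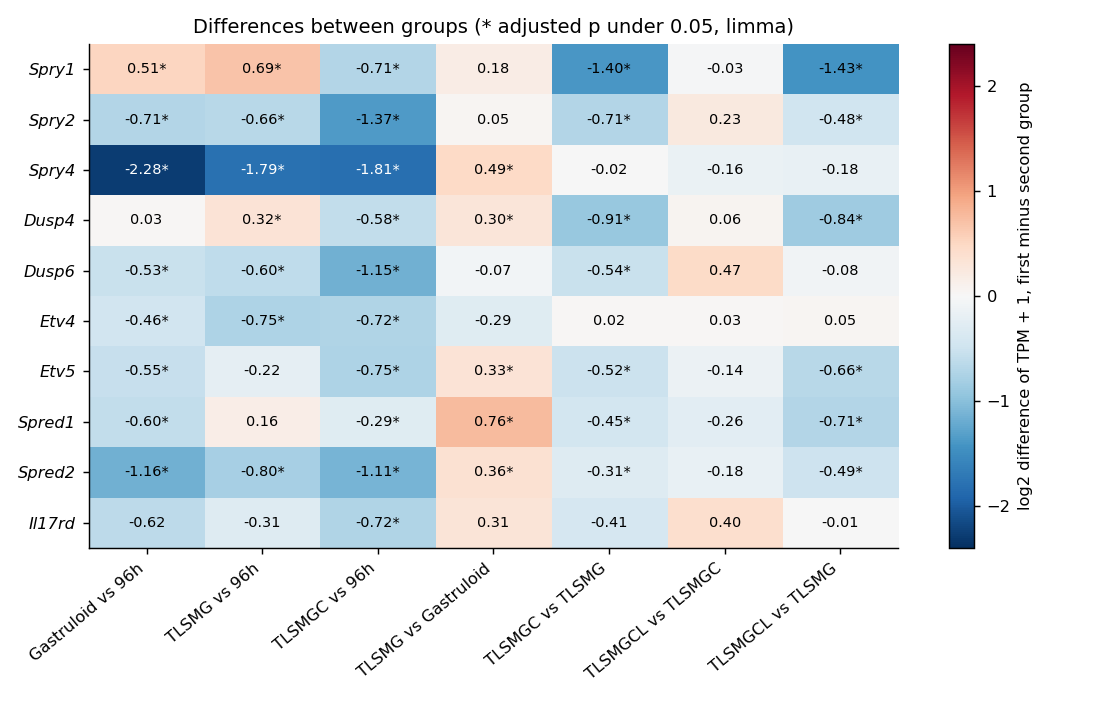
Log2 differences of TPM + 1 for the 10 feedback targets (rows) in the 7 comparisons (columns), with the first group minus the second and an asterisk for a limma adjusted p under 0.05. All 10 values for TLSMGC against 96h are below 0 and called, from -0.29 for Spred1 to -1.81 for Spry4, and no value for TLSMGCL against TLSMGC is called.

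Of 18 listed FGF ligand genes 8 were tested, and 7 fell and 0 rose in Gastruloid and also in TLSMG against 96h. Of all genes, 20.5% were lower and 20.8% higher in Gastruloid, and 12.5% lower and 33.5% higher in TLSMG. For TLSMGC the shares were 20.1% lower and 20.6% higher. In TLSMGC against 96h 6 fell and 1 rose, the rise being that of Fgf9 (0.89, limma adjusted p = 0.000349), and Fgf17 differed by -0.10 (limma adjusted p = 0.828). Fgf8, the main ligand of the tailbud, was at 57.6, 73.2 and 77.3 TPM at 96h and at 18.0 to 32.6 TPM over the 12 libraries at 120 h. It fell by 1.50 in Gastruloid (SE 0.16, limma adjusted p = 6.52e-06), 1.40 in TLSMG and 1.17 in TLSMGC against 96h, and no comparison among groups at 120 h passed the threshold. Fgf4 fell further, from 19.4, 28.6 and 30.4 TPM at 96h to 1.46 to 3.98 TPM at 120 h, a fall of 2.65 in Gastruloid (limma adjusted p = 1.62e-07).

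Fgf17 and Fgf18, which belong to the same ligand subfamily as Fgf8, moved in opposite directions with CHIR. Fgf17 was at 14.5, 8.22 and 13.1 TPM in TLSMG and 24.2, 25.4 and 34.5 TPM in TLSMGC, a rise of 1.18 (SE 0.32, limma adjusted p = 0.0101) with no overlap. Fgf18 was at 20.9, 14.6 and 22.5 TPM in TLSMG and 4.03, 3.38 and 3.96 TPM in TLSMGC, a fall of 2.07 (SE 0.16, limma adjusted p = 5.52e-07), again with no overlap. In that comparison 3 ligands rose and 2 fell, beside 10.4% of all genes higher and 30.5% lower. The ligand median in that comparison was 0.09, against -0.16 over all genes. The tailbud and presomitic markers had 7 of 11 genes higher and 1 lower in it. Fgf8 differed by 0.24 in it (SE 0.16, limma adjusted p = 0.257).

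**Figure D4:**
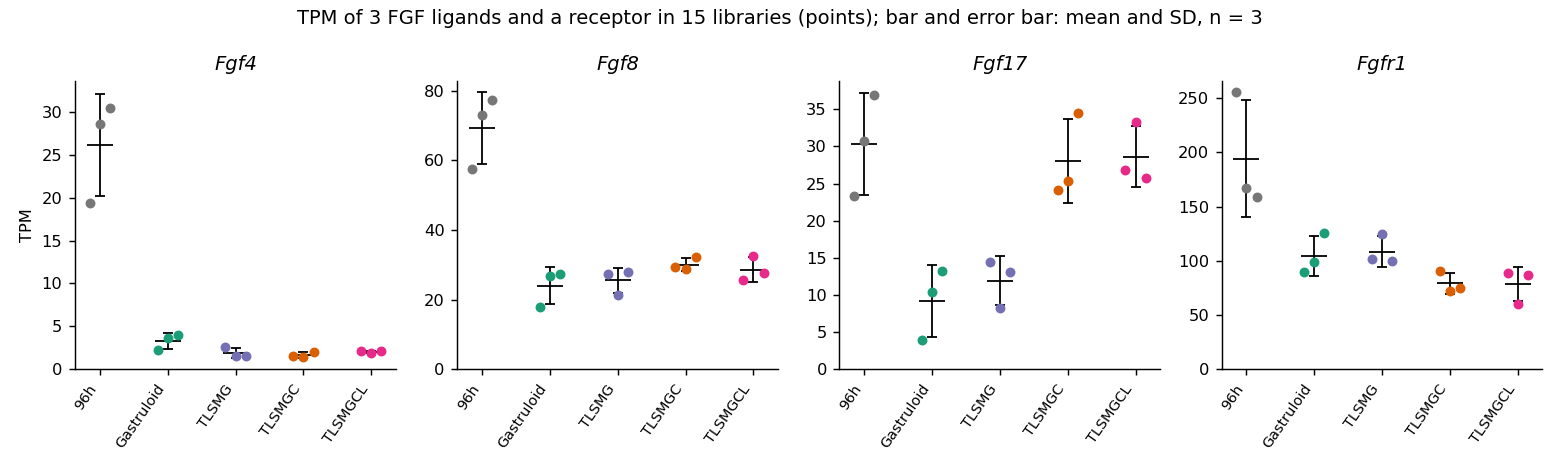
TPM of the ligands Fgf4, Fgf8 and Fgf17 and the receptor gene Fgfr1 in the 15 libraries; points are libraries, bars are means and error bars are the SD (n = 3). Fgf4 and Fgf8 are highest at 96h, whereas Fgf17 in TLSMGC (24.2 to 34.5 TPM) lies inside its range at 96h (23.3 to 36.9 TPM). The mean of Fgfr1 at 96h is 194 TPM but 33.9 from read coverage.

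Receptors and co-receptors had 7 of 10 listed genes tested. From TLSMG to TLSMGC 5 fell and 1 rose, beside 30.5% of all genes lower and 10.4% higher. The median was -0.93, against -0.16 over all genes. The count of 6 was 4 on FPKM and on coverage, where called genes fell under the filter of a mean of at least 1. Those not tested for this reason were Flrt1 and Fgfr3 on FPKM and Flrt2 and Fgfr3 on coverage. Fgfr2 fell by 1.77 (SE 0.23, limma adjusted p = 5.47e-05) and Flrt3, a membrane partner of FGF receptors, rose by 0.60 (limma adjusted p = 0.00123). Fgfr1, the main FGF receptor of presomitic mesoderm, was at 256, 167 and 158 TPM at 96h and at 60.5 to 125 TPM at 120 h, and fell by 0.86 in Gastruloid (limma adjusted p = 0.00283). Fgfr1 differed by -0.45 between TLSMGC and TLSMG (SE 0.19, limma adjusted p = 0.0776). Its mean at 96h was 194 TPM but 33.9 from read coverage, so its TPM is not set against those of other genes.

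All 21 ERK cascade genes were tested. From TLSMG to TLSMGC 10 fell and 1 rose (median -0.26, against -0.16 over all genes), beside 30.5% of all genes lower and 10.4% higher. The largest fall was that of the adaptor gene Gab1 (-0.82, limma adjusted p = 9.66e-06). The rise was that of Map2k1, which encodes MEK1 (0.27, limma adjusted p = 0.00197). The count of 11 went to 6 with median-of-ratios scaling and to 5 after correction for GC content and length, and to 7 without TLSMG replicate 2 and without TLSMGC replicate 3. In TLSMG against Gastruloid 11 rose and 0 fell, beside 31.5% of all genes higher and 7.87% lower. The list median was 0.32, against 0.13 over all genes. The largest rise was that of Braf (0.87, limma adjusted p = 0.00112). The count of 11 in TLSMG against Gastruloid went to 6 after correction for GC content and length.

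Other inhibitors of the pathway, with Etv1, had 11 of 13 listed genes tested. From TLSMG to TLSMGC 8 fell and 1 rose, beside 30.5% of all genes lower and 10.4% higher. Their median was -0.82, against -0.16 over all genes. Errfi1, an inhibitor of EGF receptors, fell by 1.67 (SE 0.10, limma adjusted p = 4.03e-08). Dusp5, another nuclear ERK phosphatase, was at 30.1, 34.3 and 35.3 TPM in TLSMG, 14.4, 16.1 and 15.8 TPM in TLSMGC and 9.69, 8.55 and 9.04 TPM in TLSMGCL. The 3 groups did not overlap, and Dusp5 fell by 1.06 from TLSMG to TLSMGC (limma adjusted p = 4e-05) and by 0.70 from TLSMGC to TLSMGCL (SE 0.13, limma adjusted p = 0.0243). It was the one gene of its list called with LDN, and that list's count was 0 under 5 of 16 alternatives, among them the fits without TLSMGC replicate 2, TLSMGCL replicate 1 or TLSMGCL replicate 3. Fgf9 was the one ligand called with LDN (-1.41, limma adjusted p = 0.000418). On coverage Fgf9 fell under the filter of a mean of at least 1 and was not tested. Its coverage level was 1.08 to 1.63 in TLSMGC and 0.371 to 0.459 in TLSMGCL.

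Immediate-early and other ERK response genes, kept as 1 list, had 10 of 15 listed genes tested. The immediate-early genes among them respond to ERK within minutes and also to handling. From TLSMG to TLSMGC 3 fell and 1 rose, beside 30.5% of all genes lower and 10.4% higher. The list median was -0.14, against -0.16 over all genes. The count of 4 was 7 with no filter on low values. Jun changed by -2.44 (SE 0.19, limma adjusted p = 5.98e-07) and Phlda1 by 0.59 (limma adjusted p = 0.00541). Egr1, a direct ERK target, was at 1.15, 2.09 and 3.27 TPM in Gastruloid and at 9.43, 4.83 and 4.93 TPM at 96h, and fell by 1.22 (SE 0.30, limma adjusted p = 0.00489). It differed by -0.17 between TLSMGC and TLSMG (limma adjusted p = 0.681). Fos had a mean TPM under 1 and was not tested.

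**Figure D5:**
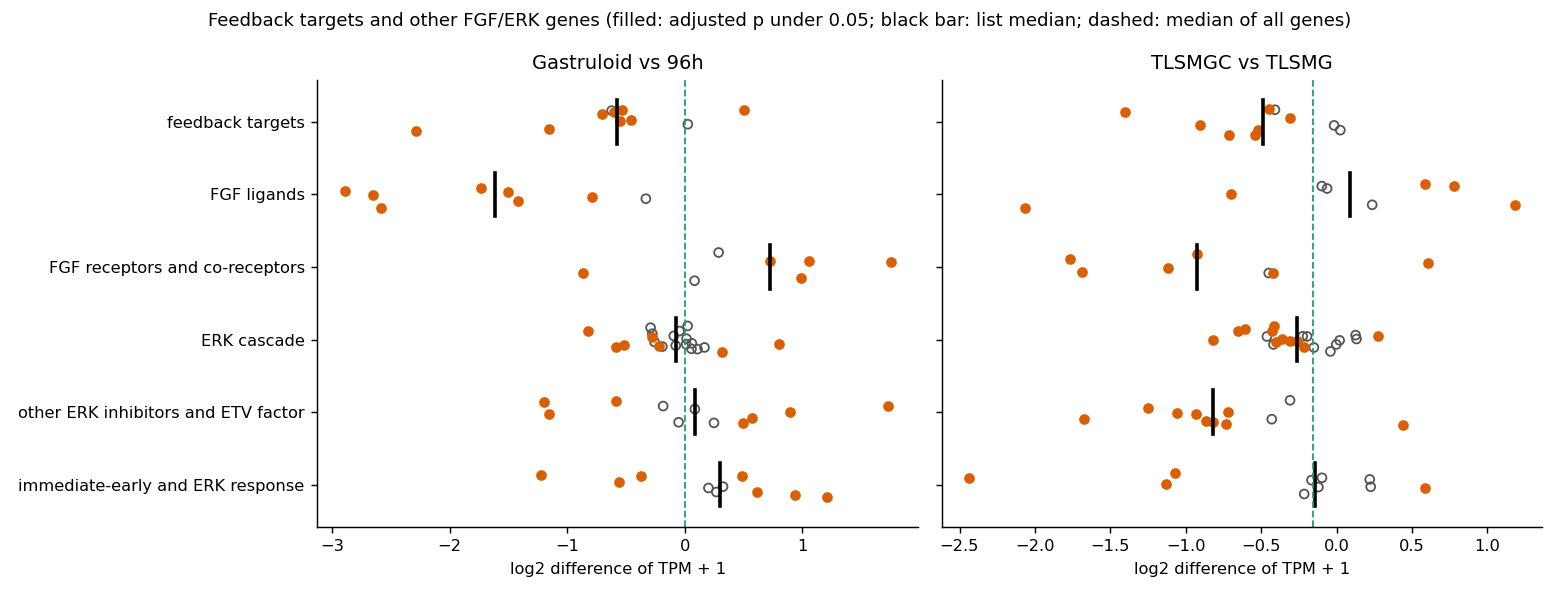
Log2 differences of the tested genes of each pathway list and of the 10 feedback targets in Gastruloid against 96h and in TLSMGC against TLSMG, a point per gene (filled for a limma adjusted p under 0.05), with the median of each list as a bar and that of all genes as a dashed line. The feedback targets had a median of -0.49 from TLSMG to TLSMGC and the other ERK inhibitors one of -0.82, beside -0.16 over all genes.

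Likeness of pattern was described by Pearson's r of log2(TPM + 1) over the 15 libraries, among 10900 other genes with a symbol and a mean of at least 5 TPM. Spry4 was most like Snai1 (r = 0.99), Rspo3 (0.99) and Ripply2 (0.98), which were at group means of 117, 162 and 184 TPM at 96h and at 2.68 to 29.9 TPM at 120 h. Spred2 was most like Gpc6 (0.99), Fgf15 (0.98), an FGF ligand gene, and Dapk1 (0.98). Spry1 was most like Pcp4 (0.97), which had a mean of 14.3 TPM in TLSMG and 0.244 TPM in TLSMGC, Ednra (0.97) and Hexim1 (0.97). The highest values were 0.97 for Spry2 (Atp1b2), 0.96 for Dusp4 (Nek2), 0.95 for Dusp6 (Ass1), 0.91 for Etv4 (Slc39a11), 0.99 for Etv5 (Gm4798), 0.98 for Spred1 (Arl5a) and 0.82 for Il17rd (Gsto1). Among the 3 genes most like Etv4 was the ligand gene Fgf4 (0.90). The 15 libraries fall into 5 groups and are not independent points.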

How the data were processed

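The authors deposited, per the file headers, 1 StringTie gene abundance table per bulk library with TPM, FPKM and coverage, replicates kept apart. The deposited TPM (abundance corrected for length and scaled to the same total) were tested. The deposited FPKM and the deposited coverage signal (mean read depth over exons) served as alternatives. The submitters' processing notes name cutadapt 2.4, STAR 2.7.3a, StringTie 2.0 and mm10. The annotation release and the strand setting are not given in the sources used here. Of the 54446 gene IDs, 54409 matched GENCODE M21 of which 53499 lie at identical positions in that release. Coordinates are those of the tables.

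TPM of 1 gene ID were summed, and genes with a mean of at least 1 TPM were kept (14290). limma 3.58.1 in R 4.3.3 was fitted to log2(TPM + 1) of all 15 libraries in 5 groups, with a mean trend, two-sided tests and Benjamini-Hochberg adjustment within each of 7 comparisons, at a threshold of 0.05. Log2 differences are on that scale and understate changes of low genes. No counts were used, so no counting intervals were computed, and with 3 libraries a group only their spread is measured. The fit was tested on simulated data.

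The members and the pathway and marker lists were chosen with earlier results of these data known. All members are named. From each pathway list the called genes with the largest rise and the largest fall in a comparison could be named, plus Fgf8, Fgf4, Fgf17, Fgfr1, Egr1, Fos and Dusp5. Likeness names the 3 genes of highest r. Alternatives were a pseudocount of 0.1, no filter, a minimum of 5 TPM, FPKM, median-of-ratios scaling, a correction for GC content and length (14283 genes), no mean trend, only the compared groups, the replicate number as a block and leaving out each library. Coverage in place of TPM (13133 genes) was added after TPM and coverage were seen to differ for Spred2 and Il17rd. Python 3.11.15, numpy 2.4.6, pandas 2.3.3 and matplotlib 3.10.9 were used for loading, summaries and plots.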

Additional observations from a re-analysis of the deposited data

Results flagged for a closer look

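For 5 members the change from 96h to 120 h differed between structures grown in Matrigel and gastruloids, by the direct test of TLSMG against Gastruloid. The share of all genes called in that comparison was 39.3%, and none of the 5 calls held under all alternatives. The log2 difference between the changes was 0.76 for Spred1, 0.49 for Spry4, 0.36 for Spred2, 0.33 for Etv5 and 0.30 for Dusp4. With median-of-ratios scaling the values were 0.59, 0.35, 0.19, 0.16 and 0.13, and those of Spred1 and Spred2 passed the threshold.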

How the results depend on the processing

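Of 43 member calls over the 7 comparisons, 30 held their direction and threshold under every alternative run. The count of members called in TLSMG against Gastruloid, 5 in the report, was 2 with no filter on low values, 2 on FPKM, 3 with median-of-ratios scaling and 1 after correction for GC content and length. The last setting also gave 4 in place of 7 for TLSMGC against TLSMG and 1 in place of 0 for TLSMGCL against TLSMGC. Leaving out each library gave 6 to 9 members called in Gastruloid against 96h, 6 to 7 in TLSMG against 96h, 8 to 9 in TLSMGC against 96h, 2 to 4 in TLSMG against Gastruloid, 7 in TLSMGC against TLSMG, 0 in TLSMGCL against TLSMGC, 6 in TLSMGCL against TLSMG and 9 to 10 among the 5 groups. The low values of 2 in TLSMG against Gastruloid came without Gastruloid replicate 1 and without TLSMG replicate 3. Of the directions that changed, 1 passed the threshold in the new direction, that of Spred1 in TLSMG against 96h. This value, 0.16 with TPM, was -0.00872 with median-of-ratios scaling and -0.31 after the GC and length correction. On FPKM, median-of-ratios scaling and the GC and length correction in turn, Spry2 in TLSMG against Gastruloid was -0.12, -0.12 and -0.0814, Spry4 in TLSMGC against TLSMG was 0.0664, 0.12 and 0.26, Dusp6 in TLSMGCL against TLSMG was 0.0540, 0.12 and 0.10, and Il17rd there was 0.12, 0.19 and 0.40 (0.13 on coverage). The GC and length correction also gave -0.0184 for Dusp4 in Gastruloid against 96h, -0.0191 for Il17rd in TLSMG against Gastruloid (0.31 with TPM) and 0.12 for Spry4 in TLSMGCL against TLSMG (-0.18 with TPM). Spry1 in TLSMGCL against TLSMGC was 0.00443 with median-of-ratios scaling and 0.00820 on coverage. Leaving out each library moved through 0 the values of Dusp4 in Gastruloid against 96h (-0.0612 to 0.0892), Spry2 (-0.0342 to 0.11) and Dusp6 (-0.19 to 0.0271) in TLSMG against Gastruloid, Spry4 (-0.12 to 0.0459) and Etv4 (-0.0805 to 0.12) in TLSMGC against TLSMG, Dusp6 (-0.17 to 0.0411), Etv4 (-0.0749 to 0.16) and Il17rd (-0.38 to 0.25) in TLSMGCL against TLSMG, and Spry1 (-0.17 to 0.0765), Dusp4 (-0.0538 to 0.15) and Etv4 (-0.10 to 0.13) in TLSMGCL against TLSMGC. The cause of these changes was not tested. The deviations of same-numbered libraries from their group means had a mean r of -0.07 to 0.04 over the comparisons, with single values from -0.18 to 0.10. With means of 3 libraries, such values cannot show whether the numbers pair the libraries. The fit with the replicate block called 8, 7 and 9 members in Gastruloid, TLSMG and TLSMGC against 96h, 5 in TLSMG against Gastruloid, 7 in TLSMGC against TLSMG, 0 with LDN, 6 in TLSMGCL against TLSMG and 9 among the 5 groups. The GC and length correction was not run for the test among the 5 groups. Of 675 pathway list counts under alternatives, 38 moved by more than 1.5 times. On FPKM and on coverage the filter was applied anew, so some listed genes were not tested there. Depth differed by 2.19 times between libraries and, without counts, limits low genes by an unknown amount.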
